A study of Mus musculus with 38 samples.

Results

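The Myc family and the genes of polyamine synthesis were followed through chemotherapy and through tumor progression in a mouse model of breast cancer. The group comprised 10 genes of the 28786 measured, read from 20 of the 41174 probes on the array. Its members were Myc, Mycn, Mycl1, Max and Mxd1 of the Myc network and Odc1, Amd1, Srm, Sms and Sat1 of polyamine metabolism, found by the gene name in the array files. The set was chosen by 2 measured values, the higher level of Myc in residual than in untreated tumors and the higher level of Odc1 in metastases than in disseminated cells. Those contrasts are therefore only described below, with no test for any member, as are all other contrasts of Myc between chemotherapy groups and of Odc1 that involve metastases or disseminated cells.

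The arrays came from transplants of MMTV-PyMT;actin-GFP hyperplasias into the mammary fat pads of FVB/n mice. In these mice the MMTV promoter drives the polyoma middle T oncogene in mammary epithelium, and the actin promoter drives GFP in cells of donor origin. GFP-positive cells were sorted in all groups, so any donor cell could enter the gate. The chemotherapy experiment comprised 6 untreated tumors, 6 residual tumors taken after the first dose (labeled as regressed tumors) and 4 relapsed tumors taken after the fourth dose (labeled as resistant tumors, the match being by elimination). Docetaxel, doxorubicin and cyclophosphamide had been started 2 months after transplantation. The progression experiment comprised 5 adenomas from early outgrowths, 6 carcinomas from late outgrowths, 6 samples of disseminated cells from the pooled lungs of several mice with late outgrowths, and 5 samples of lung metastases that grew after the primary tumor had been removed. None of these 4 groups received chemotherapy.

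Myc is a transcription factor that binds DNA as a dimer with Max, most often at the E-box CACGTG, and promotes growth and ribosome synthesis. Mycn and Mycl1 are its close relatives, whereas Mxd1 competes for Max and represses the same sites. Odc1, a classic Myc target, is ornithine decarboxylase and makes putrescine. Amd1 provides the aminopropyl donor with which the synthases Srm and Sms turn putrescine into spermidine and spermidine into spermine. Sat1 acetylates spermidine and spermine for export or breakdown.

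RefSeq promoter windows, which run from 250 bases before to 50 bases after a transcript start on GRCm38.p6, were at hand for 8 of the 10 members. The letters CACGTG, which read the same on both strands, occurred in 2 of the 9 member windows and in 7.15% of all 32851 windows. The windows of Max, Mxd1 and Sms, which were called higher in metastases than in adenomas, and of Odc1, whose level helped to choose the set, are printed here, 5′ to 3′ on the strand of the gene, to show where the E-box letters lie in members that were high in metastases. Capitals mark CACGTG.
Max, chr12:76962199-76962498, minus strand: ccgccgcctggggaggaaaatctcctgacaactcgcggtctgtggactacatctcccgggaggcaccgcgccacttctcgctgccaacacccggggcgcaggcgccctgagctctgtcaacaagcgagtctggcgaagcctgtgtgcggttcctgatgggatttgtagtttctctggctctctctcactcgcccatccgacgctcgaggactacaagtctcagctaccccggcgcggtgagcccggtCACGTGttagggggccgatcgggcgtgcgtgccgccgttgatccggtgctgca
Odc1, chr12:17544623-17544922, plus strand: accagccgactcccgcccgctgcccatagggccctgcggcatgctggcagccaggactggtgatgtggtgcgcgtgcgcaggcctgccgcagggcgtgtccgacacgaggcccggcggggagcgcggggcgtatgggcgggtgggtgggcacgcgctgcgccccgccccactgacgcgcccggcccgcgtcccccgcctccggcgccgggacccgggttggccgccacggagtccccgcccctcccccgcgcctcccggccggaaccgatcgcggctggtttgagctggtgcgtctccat
Mxd1, chr6:86669110-86669409, minus strand: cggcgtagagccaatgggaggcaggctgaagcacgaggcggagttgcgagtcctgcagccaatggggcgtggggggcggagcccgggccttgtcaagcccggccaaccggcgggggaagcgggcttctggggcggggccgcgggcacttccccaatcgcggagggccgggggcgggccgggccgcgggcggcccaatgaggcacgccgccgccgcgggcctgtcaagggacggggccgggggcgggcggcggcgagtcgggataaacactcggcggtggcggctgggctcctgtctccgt
Sms, chrX:157492238-157492537, minus strand: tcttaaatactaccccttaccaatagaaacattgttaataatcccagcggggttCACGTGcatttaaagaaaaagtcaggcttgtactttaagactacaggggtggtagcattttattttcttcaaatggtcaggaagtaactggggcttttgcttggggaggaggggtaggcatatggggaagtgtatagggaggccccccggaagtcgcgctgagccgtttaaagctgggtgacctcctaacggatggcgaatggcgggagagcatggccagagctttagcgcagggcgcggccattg
In the Max window the match began at position -3 from the transcript start, and in the Sms window at position -196. A second Sms window, for a start further downstream, held no match. These matches describe the letters in the windows only.

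Every value is a log2 ratio of a sample, labeled with Cy5, to the same Universal mouse reference, labeled with Cy3. A value of 0 means as much signal as the reference, and no dye was swapped. The sample channel was well above background at 49.9 to 63.7% of probes on the chemotherapy arrays and at 47.6 to 78.3% on the progression arrays, whose RNA had been amplified in an additional round. The experiments were therefore normalized and tested apart. The array of carcinoma replicate 6 was unlike its group (median r = 0.760 with the 5 others). Disseminated replicate 6 had a lower median r with its own group (0.710). Disseminated replicate 4 and metastasis replicate 4 were both at 0.776. Values of pooled cells cannot tell fewer cells of a type from less RNA per cell.

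In the chemotherapy experiment, Myc was the member that varied most between groups. Its log2 ratio lay between -1.14 and -0.70 in the untreated tumors (median -0.77), and between -0.44 and 0.24 in the residual tumors (median -0.06). In the relapsed tumors it was -0.03, 0.08, -0.56 and -0.49. The lowest residual and the lowest relapsed tumor both lay above the highest untreated tumor, whereas residual and relapsed tumors overlapped.

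Untreated tumors had a mean log2 ratio of Myc of -0.85 ± 0.17 (SD, n = 6), residual tumors one of -0.09 ± 0.31 (n = 6) and relapsed tumors one of -0.25 ± 0.32 (n = 4). Residual tumors were 1.70-fold above untreated tumors (log2 difference 0.76), and relapsed tumors 1.51-fold (0.60). Relapsed and residual tumors differed by -0.16. With each array left out in turn, the difference between residual and untreated tumors stayed between 0.70 and 0.83. The 4 arrays of slide 1 were all untreated. On slide 2, which held 2 residual tumors and 1 untreated tumor, the difference was 1.37. With slide as a fixed block it was 1.01. Relapsed tumors differed by 0.25 from the untreated tumor on slide 5 and by -0.04 from the residual tumor on slide 4. The macrophage marker mean, described further on, spanned -0.67 to 2.21 in untreated, -0.50 to 1.39 in residual and -1.10 to 0.48 in relapsed tumors.

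The other Myc probes gave like differences between residual and untreated tumors. Probe 1, which stands for the gene here and was spotted 10 times, lies at chr15:62064256-62064316 of build mm7. Probe 2 lies at chr15:62064157-62064216 and probe 3 at chr15:62063665-62063724, further upstream on the same plus strand. The array files do not name the exons. The log2 difference between residual and untreated tumors was 0.76 ± 0.15 (SE) for probe 1, 0.72 ± 0.12 for probe 2 and 0.64 ± 0.12 for probe 3. Between relapsed and untreated tumors it was 0.60 ± 0.16, 0.51 ± 0.14 and 0.35 ± 0.14 in the same order.

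**Figure D1:**
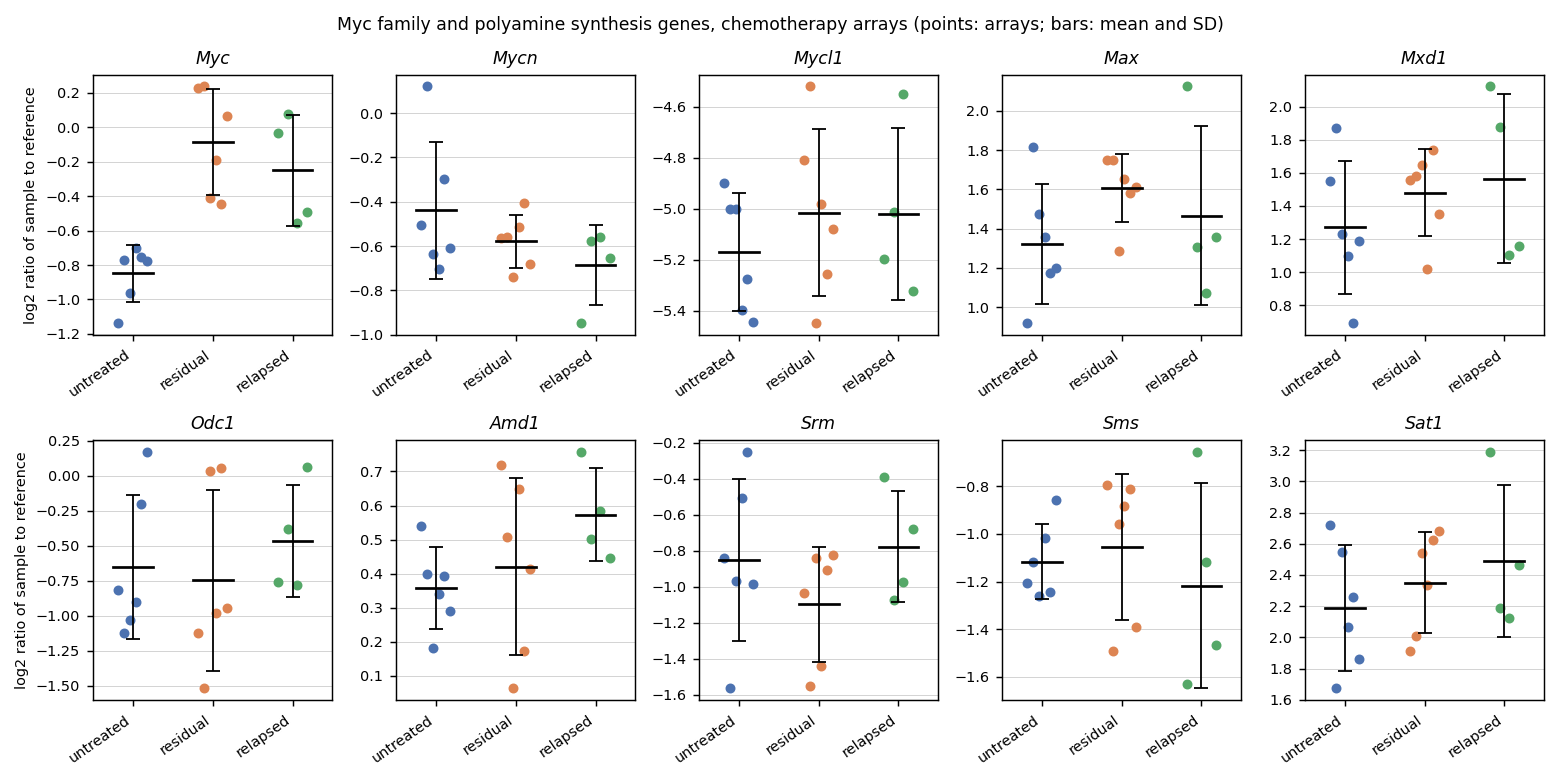
Log2 ratio of sample to reference (y axis) of the 10 genes in untreated, residual and relapsed tumors (x axis); each point is an array, and bars give the mean and SD. The 6 residual tumors lie at or above -0.44 for Myc, above all 6 untreated tumors, a difference that helped to choose the set.

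None of the 9 other members was called in either comparison with relapsed tumors. Here and below, called means an adjusted p under 0.05 in limma, with Benjamini-Hochberg adjustment over all 28786 genes. In relapsed versus residual tumors 0 of 9 members passed, with 0 at an unadjusted p below 0.05 and 0 in the methods' t-test, and 0.271% of all genes were called. In relapsed versus untreated tumors the counts were again 0 of 9, 0 and 0, beside 0.0174% of all genes. Few genes of any kind were called in these comparisons.

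Among the partners of Myc, Max had mean log2 ratios of 1.32 ± 0.31 (untreated), 1.61 ± 0.17 (residual) and 1.47 ± 0.46 (relapsed). Mxd1 ran from 1.27 ± 0.40 through 1.48 ± 0.26 to 1.57 ± 0.51 in the same order. These differences, at most 0.29 on the log2 scale, were smaller than the SD of at least 1 of the groups compared. On the other Mxd1 probe, residual tumors exceeded untreated tumors by 0.31 ± 0.09 (SE), against 0.21 ± 0.21 on the main probe, as a description. Mycl1 lay near -5 in all groups, with means of -5.17 ± 0.23, -5.02 ± 0.33 and -5.02 ± 0.34, and was thus far below the reference but well above background on all 16 arrays. Mycn was well above background on 1 of 16 arrays, an untreated tumor, and its differences were not read.

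No polyamine enzyme was called. Odc1 was at -0.65 ± 0.52 (untreated), -0.75 ± 0.65 (residual) and -0.46 ± 0.40 (relapsed), and its adjusted p was 0.895 for relapsed versus residual tumors. Srm was -0.85 ± 0.45, -1.10 ± 0.32 and -0.78 ± 0.31. The SD of Odc1 within groups (0.40 to 0.65) was larger than any difference between its group means. Amd1, Sms and Sat1 differed by 0.30 or less on the log2 scale in every contrast. In residual versus untreated tumors 0.195% of all genes were called, and no count of members is given because this contrast chose the set.

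Across the 16 chemotherapy arrays, the genes whose log2 ratio was most like that of Myc were Tent5b (Pearson's r = 0.902, Spearman's rho = 0.871), Slc19a2 (0.888 and 0.900), Herpud2 (0.885 and 0.909), Yod1 (0.884 and 0.853) and Dpf2 (0.876 and 0.815). They came first among 10857 genes with a symbol and a sample channel well above background on every array. These correlations describe arrays that share groups and slides. Among the members, Max was the most like Myc (r = 0.593, rho = 0.524), and Odc1 gave r = -0.276.

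In progression the differences were larger, and members differed in opposite directions. Myc was highest in adenomas and, on probes 1 and 2, lowest in metastases, while on probe 3 carcinomas were lowest. Max was highest in metastases and Srm in adenomas. Mxd1 was highest in disseminated cells on its main probe, while on its other probe metastases were higher (1.79 against 1.68). Odc1 had a mean above 0 in metastases only. Adenoma and disseminated arrays shared 3 slides, scanned on the same day, and carcinoma and metastasis arrays shared 3 other slides, scanned on another day. Metastases versus carcinoma and disseminated cells versus adenoma were therefore compared within slides. In the remaining contrasts group and slide set cannot be told apart.

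The sorted cells also differed in markers of other cell types. The mean log2 ratio of 12 macrophage genes, all measured, lay between -0.07 and 0.68 in adenomas, between 3.36 and 5.44 in disseminated cells and between 0.83 and 5.36 in metastases. In the carcinomas it reached 4.99 in replicate 6, with a median of 0.26. The mean of 12 mammary epithelial genes lay between 4.16 and 4.97 in adenomas, between 3.20 and 4.96 in carcinomas, between 0.75 and 4.40 in disseminated cells and between 0.55 and 4.46 in metastases. In adenomas 10 of the 12 macrophage genes were well above background on all arrays, in carcinomas 11 and in the other groups 12, and the 12 epithelial genes were so in all groups. Other lists moved with the lung groups as well. From adenoma and carcinoma to disseminated cells and metastases, the group means were 0.29, 0.72, 5.12 and 3.75 for 5 alveolar macrophage genes and 1.10, 1.19, 3.31 and 2.52 for 6 lung epithelial genes. For 7 neutrophil genes they were 2.52, 2.94, 4.41 and 3.03, and for 6 endothelial genes -0.02, 0.34, 1.75 and 0.87. In adenomas 1 alveolar macrophage, 1 lung epithelial and 2 neutrophil genes were not well above background on any array, and in carcinomas 1 neutrophil gene. The part of these cells in the member values was not tested, and the marker levels are given beside the results they move with.

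**Figure D2:**
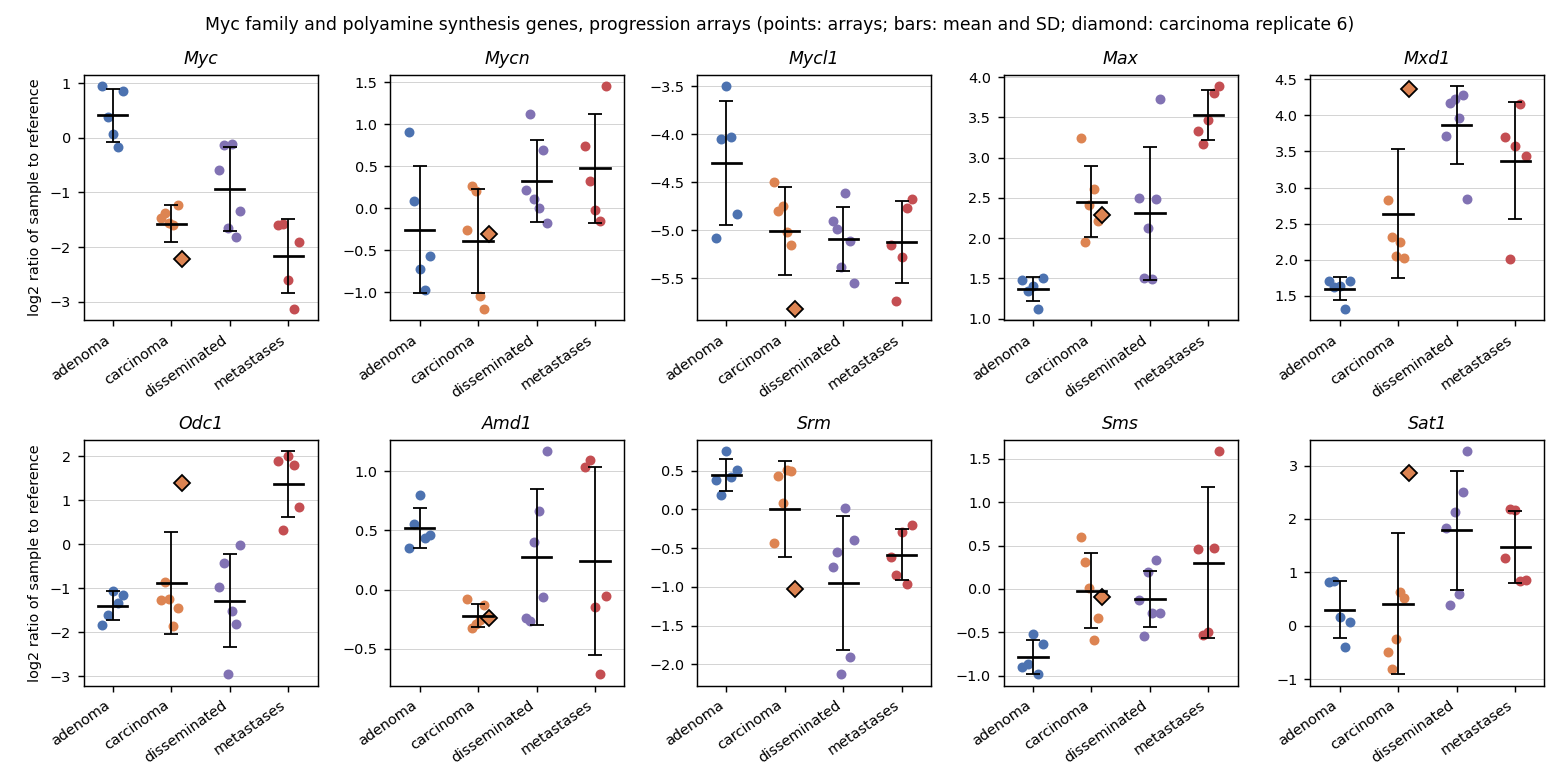
Log2 ratio of sample to reference (y axis) of the 10 genes in adenoma, carcinoma, disseminated cells and metastases (x axis); each point is an array, bars give the mean and SD, and a diamond marks carcinoma replicate 6. Myc falls from adenomas to metastases while Max rises, and Odc1 lies above 0 in all 5 samples of metastases and in carcinoma replicate 6.

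Myc had log2 ratios of 0.95, 0.38, 0.06, -0.17 and 0.85 in the adenomas. The carcinomas ranged from -2.22 to -1.23 (median -1.51) and the disseminated cells from -1.82 to -0.11 (median -0.96). The metastases gave -1.60, -1.58, -2.61, -3.13 and -1.91. All adenomas lay above all carcinomas and all metastases, and 2 of the 6 disseminated samples (-0.13 and -0.11) lay above the lowest adenoma.

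Myc fell 3.97-fold from adenoma to carcinoma (log2 difference -1.99 ± 0.34 SE, adjusted p = 0.00145) and was 2.56-fold lower in disseminated cells (-1.36 ± 0.34, 0.00954) and 5.98-fold lower in metastases (-2.58 ± 0.36, 5.64e-05). These contrasts share the adenomas and are not independent. As stated above, group and slide set cannot be told apart in those of carcinomas and metastases with adenomas. Disseminated cells and carcinomas were not distinguished (0.63 ± 0.33, adjusted p = 0.166), nor were metastases and carcinomas (-0.59 ± 0.34, 0.240). Within slides, disseminated cells were below adenomas by -1.36, -2.35 and -0.18, and with slide as a fixed block the difference was -1.44 (adjusted p = 0.00887). Only in the methods' t-test was the call in disseminated cells lost (adjusted p = 0.0621). Metastasis replicate 4, the lowest for Myc at -3.13, had the lowest epithelial marker mean of the metastases (0.55), whereas replicate 2, with a macrophage mean of 0.83 and an epithelial mean of 4.34, was at -1.58. Replicate 1 was as high for Myc (-1.60) with a macrophage mean of 3.81, and replicate 3 was at -2.61 with an epithelial mean of 4.31. Replicates 4 and 3, the lowest for Myc, had the highest macrophage means of the metastases (5.36 and 4.60). Replicate 5 lay between replicates 1 and 3 for Myc, with a macrophage mean of 1.24. The part of the markers in the Myc level was not tested.

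The probes of Myc did not give the same size of change in this experiment. Probe 2 followed probe 1, with -1.99 ± 0.32 (SE) for carcinoma, -1.27 ± 0.32 for disseminated cells and -2.33 ± 0.33 for metastases versus adenoma. Probe 3, the most upstream, gave -0.76 ± 0.24, -0.37 ± 0.24 and -0.49 ± 0.25, all of the same sign and all smaller. Its group means ran from -0.17 in adenoma to -0.94 in carcinoma, with -0.54 for disseminated cells and -0.66 for metastases between them. The sample channel was well above background for all 3 probes on all 22 arrays. Whether the additional round of amplification plays a part in this was not tested.

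**Figure D3:**
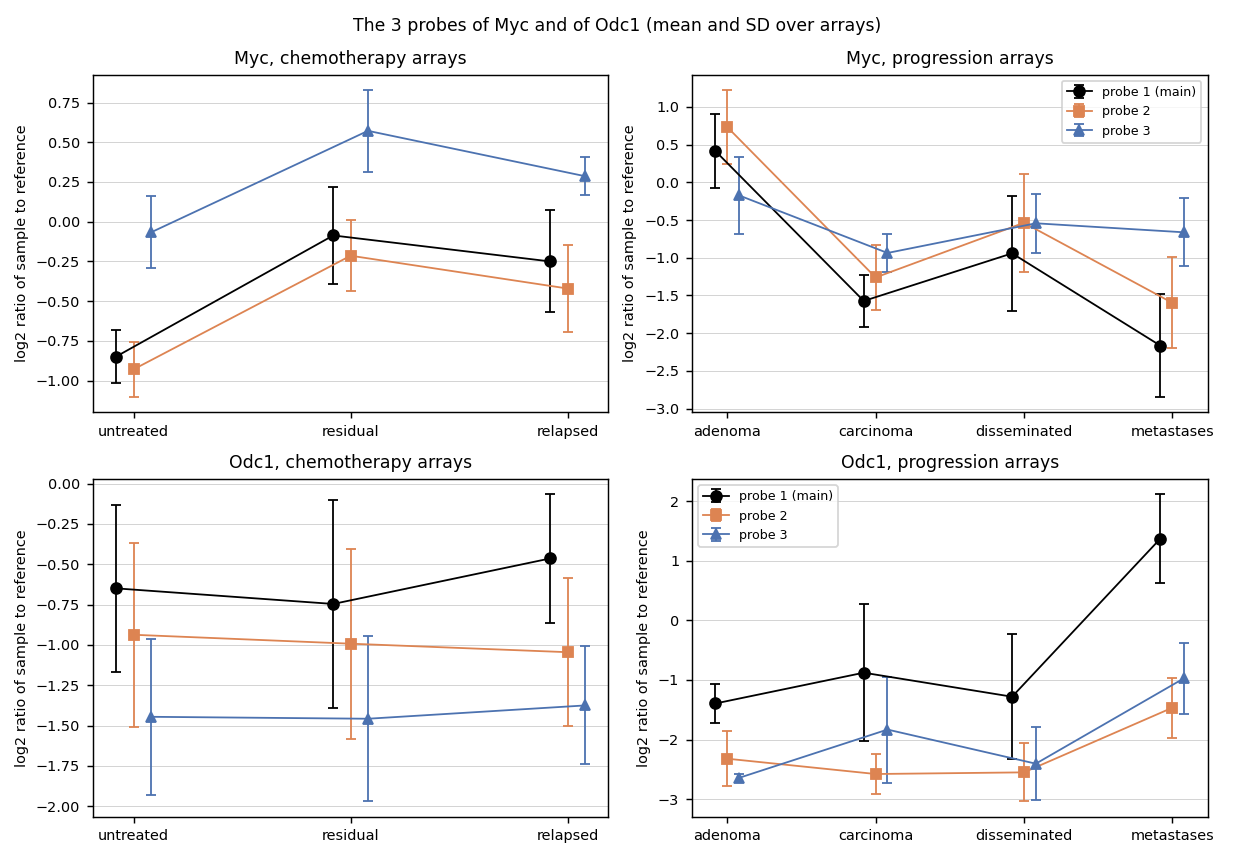
Mean log2 ratio of sample to reference and SD (y axis) of the 3 Myc probes (top) and the 3 Odc1 probes (bottom) in the chemotherapy groups (left) and the progression groups (right). The Myc probes differ in the same directions between the chemotherapy groups. In progression probe 3 spans a narrower range (-0.17 to -0.94) than probe 1 (0.41 to -2.17), and all Odc1 probes are highest in metastases.

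Max, the obligate partner of Myc and of Mxd1, rose as Myc fell. Its log2 ratios were 1.48, 1.34, 1.40, 1.12 and 1.5 in adenomas, 1.96 to 3.24 in carcinomas (median 2.35) and 1.49 to 3.73 in disseminated cells (median 2.31). In metastases they were 3.33, 3.17, 3.46, 3.80 and 3.89. No metastasis overlapped with an adenoma, and 1 carcinoma and 1 disseminated sample reached the range of the metastases.

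Max was 4.48-fold higher in metastases than in adenomas (log2 difference 2.16 ± 0.32, adjusted p = 8.29e-05) and 2.11-fold higher than in carcinomas (1.08 ± 0.30, 0.0155). Within slides, metastases exceeded carcinomas by 1.39, 0.74 and 0.92, and the fixed slide block gave 1.03 (adjusted p = 0.0122). Metastases were 2.34-fold above disseminated cells, as a description. The rise from adenoma to carcinoma was 2.12-fold (1.08 ± 0.30, 0.0262), and that to disseminated cells 1.92-fold (0.94 ± 0.30, 0.0341). Carcinomas and disseminated cells were not distinguished (-0.15 ± 0.29, 0.753).

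The 2 Max calls against metastases were kept in all alternatives, with or without any 1 array. The call in carcinoma was lost without adenoma replicate 2, 3 or 4 or carcinoma replicate 1 or 4 (adjusted p 0.0504 to 0.0623, difference 0.93 to 1.09). That in disseminated cells was lost without adenoma replicate 2, 3 or 4 or disseminated replicate 1, 5 or 6 (0.0505 to 0.0747, difference 0.66 to 0.94), and also with the replicate block, with only these groups in the fit and in the methods' t-test (0.0610, 0.101 and 0.151). Max was 3.17 in metastasis replicate 2, where the macrophage mean was 0.83, and 2.28 in carcinoma replicate 6, where it was 4.99. Only 1 Max probe was on the array.

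Mxd1, the repressor that competes with Myc for Max, had log2 ratios of 1.70, 1.62, 1.63, 1.32 and 1.70 in adenomas and 2.03 to 4.36 in carcinomas (median 2.27). Disseminated cells ranged from 2.84 to 4.28 (median 4.07), and metastases gave 3.71, 2.01, 3.57, 4.15 and 3.43. All 6 samples of disseminated cells lay above all adenomas by more than the whole spread of the adenomas.

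Mxd1 was 4.83-fold higher in disseminated cells than in adenomas (2.27 ± 0.39, adjusted p = 0.00107) and 2.35-fold higher than in carcinomas (1.23 ± 0.37, 0.0196, and 0.0656 in the methods' t-test). In metastases it was 3.43-fold above adenomas (1.78 ± 0.41, 0.00307). Within slides, disseminated cells exceeded adenomas by 1.77, 2.59 and 2.43. Carcinoma versus adenoma (1.04 ± 0.39, 0.089) and metastases versus carcinoma (0.74 ± 0.39, 0.194) were not called. The latter was called without carcinoma replicate 6 or metastasis replicate 2, with differences of 1.08 in both cases and adjusted p values of 0.0157 and 0.0452. The other Mxd1 probe gave smaller differences from adenomas, of 1.06 ± 0.31 in disseminated cells and 1.17 ± 0.32 in metastases. Between disseminated cells and carcinomas it also gave a smaller difference, of 0.50 ± 0.29 against 1.23 ± 0.37 on the main probe.

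Mxd1 and the macrophage markers were compared sample by sample, with no test. The highest carcinoma for Mxd1 was replicate 6, at 4.36, with a macrophage mean of 4.99, and the 5 other carcinomas were at or below 2.83 with macrophage means at or below 0.61. The lowest metastasis was replicate 2, at 2.01, with a macrophage mean of 0.83. Replicate 5, at 3.43, had a mean of 1.24 and replicate 3, at 3.57, one of 4.60. Replicate 1, next in order, had a mean of 3.81, and replicate 4, the highest metastasis for Mxd1, had the highest mean (5.36). Disseminated replicate 6, the lowest of its group at 2.84, had a macrophage mean of 4.49 and the highest epithelial mean of that group (4.40). The part of the marker levels in these differences was not tested.

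The other Myc genes changed less. Mycl1 was -5.09, -4.04, -3.49, -4.03 and -4.83 in adenomas, against means of -5.01 ± 0.46 (carcinoma), -5.09 ± 0.34 (disseminated cells) and -5.12 ± 0.43 (metastases). It was called lower in disseminated cells (-0.79 ± 0.28, adjusted p = 0.0478) and in metastases (-0.83 ± 0.29, 0.0380) than in adenomas. The groups overlapped, and the calls were lost without 1 array in 8 of 11 and 6 of 10 cases (adjusted p up to 0.152 and 0.125). These arrays were adenoma replicates 2, 3 and 4 in both contrasts, disseminated replicates 1, 2, 3, 5 and 6 in the former and metastasis replicates 1, 2 and 3 in the latter. With the deposited matrix the differences were -0.53 and -0.52 (adjusted p 0.213 and 0.199). Without adenoma replicate 1, the lowest adenoma, Mycl1 was also called lower in carcinomas (-0.91, 0.0415).

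Mycn had mean log2 ratios of -0.26 ± 0.76 (adenoma), -0.39 ± 0.62 (carcinoma), 0.32 ± 0.49 (disseminated cells) and 0.47 ± 0.65 (metastases). It was well above background in 3 of 5 adenomas, 4 of 6 carcinomas, all 6 disseminated samples and all 5 metastases. No contrast of Mycn was called, although metastases versus adenoma was (1.02, adjusted p = 0.0423) without adenoma replicate 1, the highest adenoma at 0.91. The other Mycn probe did not show this rise. It gave -0.17 ± 0.18 for metastases versus adenoma, against 0.73 ± 0.38 on the main probe, and -0.07 ± 0.17 for disseminated cells versus adenoma, against 0.58 ± 0.36.

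Odc1, the rate-limiting enzyme of polyamine synthesis, had log2 ratios of -1.84, -1.61, -1.05, -1.33 and -1.15 in adenomas. In carcinomas it ranged from -1.85 to 1.38 (median -1.25) and in disseminated cells from -2.95 to -0.02 (median -1.24). The metastases gave 1.89, 0.33, 2.00, 1.81 and 0.85. All metastases lay above all adenomas and all disseminated samples, and carcinoma replicate 6, at 1.38, was the only sample of the other groups above 0.

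The mean of Odc1 in metastases, 1.38 ± 0.74 (SD, n = 5), was 6.30-fold above disseminated cells (log2 difference 2.66), 6.82-fold above adenomas (2.77) and 4.77-fold above carcinomas (2.25). Without carcinoma replicate 6 the last difference was 2.72, and within slides it was 2.78, 3.1 and 0.35. The smallest of these came from slide 3, which held metastasis replicate 2 and carcinoma replicates 5 and 6. The difference from disseminated cells lay between 2.31 and 2.93 with each array left out in turn and was 1.73 as the mean of all Odc1 probes. On that mean the differences from adenomas and carcinomas were 1.77 and 1.41, over 1.5 times smaller than with probe 1. Probe 2 and probe 3 gave 1.09 and 1.44 over disseminated cells. Carcinoma versus adenoma, the only progression contrast of Odc1 that was tested, was not called (0.52 ± 0.53, adjusted p = 0.567), and the difference was 0.06 (0.946) without carcinoma replicate 6.

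Within the metastases, Odc1 and the macrophage marker mean were low and high in the same samples. Metastasis replicate 2, at 0.33, was the lowest of its group and had the lowest macrophage mean (0.83), and replicate 5, at 0.85, had a mean of 1.24. The 3 other metastases, at 1.81 to 2.00, had means of 3.81 to 5.36. The disseminated cells had macrophage means of 3.36 to 5.44 with Odc1 at or below -0.02. The part of these markers in the Odc1 level was not tested.

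The probes of Odc1 differed in size, though not in direction, for metastases. Probe 1, used for the gene, lies at chr12:17601268-17601326, probe 2 at chr12:17598312-17598371 and probe 3 at chr12:17600319-17600375 of build mm7, all on the plus strand. Probe 1, the most downstream, gave the largest difference of metastases from each other group. Probe 2, the most upstream, gave the smallest from disseminated cells and adenomas (1.09 and 0.86), and probe 3 the smallest from carcinomas (0.86 against 1.11 for probe 2).

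Srm, spermidine synthase, had log2 ratios of 0.38, 0.18, 0.75, 0.41 and 0.51 in adenomas, -1.02 to 0.51 in carcinomas (median 0.25) and -2.13 to 0.01 in disseminated cells (median -0.65). The metastases gave -0.61, -0.85, -0.30, -0.96 and -0.20. All disseminated samples and all metastases lay below all adenomas.

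Srm fell 2.64-fold in disseminated cells (-1.40 ± 0.34, adjusted p = 0.00806) and 2.04-fold in metastases (-1.03 ± 0.36, 0.0372) relative to adenomas, and 1.95-fold in disseminated cells relative to carcinomas (-0.96 ± 0.33, 0.0354). Within slides, disseminated cells were below adenomas by -0.96, -2.37 and -1.02. The first of these calls was lost only in the methods' t-test (adjusted p = 0.059). The call in metastases was lost without adenoma replicate 1, 3, 4 or 5 or metastasis replicate 1, 2 or 4 (adjusted p 0.0524 to 0.0855, difference -1.05 to -0.94), with the replicate block (0.0667), without normalization between arrays (0.0965) and with the deposited matrix, where the difference was -0.66 (0.163). The call against carcinomas was lost without carcinoma replicate 2, 3, 4 or 5 or disseminated replicate 3 or 5 (0.0621 to 0.0935, difference -0.95 to -0.72) and in 6 other alternatives (0.0528 to 0.141). Disseminated replicates 3 and 5, at -2.13 and -1.91, had the lowest epithelial marker means of their group, 0.75 and 1.03.

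Sms, spermine synthase, was -0.90, -0.86, -0.52, -0.98 and -0.63 in adenomas, with means of -0.02 ± 0.43 in carcinomas and -0.11 ± 0.33 in disseminated cells. The metastases were spread widely, at 0.47, -0.52, -0.49, 0.48 and 1.59. Sms rose 2.12-fold in metastases over adenomas (1.08 ± 0.31, adjusted p = 0.0127), a call that was lost with only these groups in the fit (0.0515) and in the methods' t-test (0.0860). The 2 other Sms probes gave 0.72 ± 0.35 and 1.07 ± 0.27 for the same contrast. As the mean of all probes, Sms was also called higher in carcinomas (0.70, 0.0361) and disseminated cells (0.74, 0.0183) than in adenomas.

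Sat1 and Amd1 were not called in any contrast. Sat1, the enzyme of polyamine acetylation, had means of 0.30 ± 0.53 (adenoma), 0.41 ± 1.32 (carcinoma), 1.79 ± 1.12 (disseminated cells) and 1.47 ± 0.67 (metastases). Replicate 6 of the carcinomas, at 2.86, was the highest carcinoma, and without it Sat1 was called higher in disseminated cells (1.87, adjusted p = 0.00457) and in metastases (1.55, 0.0220) than in carcinomas. Without disseminated replicate 2 or 4 it was called higher in disseminated cells than in adenomas (difference 1.72 to 1.76, adjusted p 0.0362 to 0.0377) and than in carcinomas (adjusted p at most 0.0374), and with slide as a fixed block disseminated cells were called higher than adenomas (1.66, 0.0170). Sat1 probe 1 did not show this order, with means of 0.76, 0.41, 0.81 and 0.13 in adenomas, carcinomas, disseminated cells and metastases. Amd1, the source of the aminopropyl donor, was at 0.52 ± 0.17 (adenoma), -0.22 ± 0.10 (carcinoma), 0.28 ± 0.57 (disseminated cells) and 0.24 ± 0.79 (metastases). The carcinomas all lay below the adenomas, and the adjusted p was 0.0968 in the fit over all groups. With only these groups in the fit Amd1 was called lower in carcinomas (-0.74, 0.000855). The other Amd1 probe gave a smaller fall from adenomas to carcinomas, of -0.28 ± 0.30 (SE) against -0.74 ± 0.29 on the main probe. Relative to adenomas the probes differed in sign in metastases (0.47 ± 0.32 against -0.28 ± 0.30) and in disseminated cells (0.15 ± 0.30 against -0.24 ± 0.29).

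**Figure D4:**
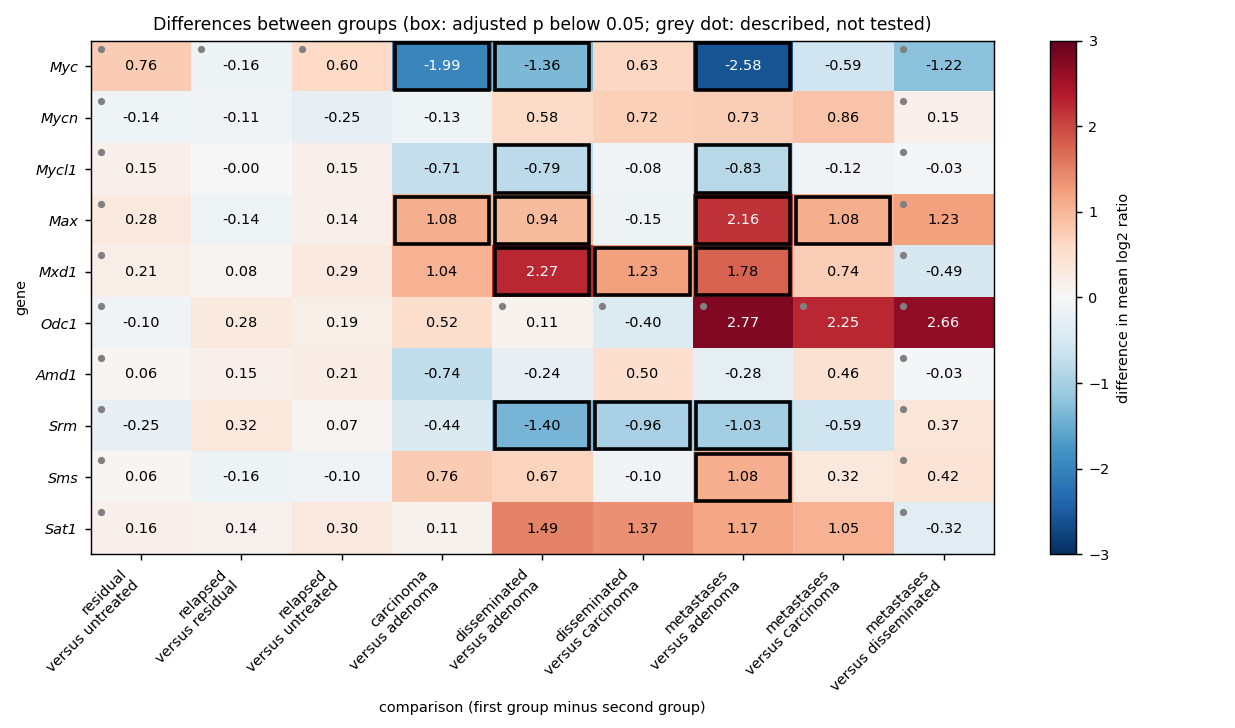
Differences in mean log2 ratio of the 10 genes (rows) in 9 comparisons (columns), colored by size, red where the first group was higher and blue where it was lower; boxes mark an adjusted p below 0.05 and grey dots mark contrasts that were described and not tested. The boxes lie only in the progression comparisons, with the largest tested rise for Mxd1 in disseminated cells over adenomas (2.27) and the largest tested fall for Myc in metastases below adenomas (-2.58).

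The counts of called members are set here against the share of all genes called. In carcinoma versus adenoma 2 of 10 members were called, 1 higher and 1 lower, beside 11.7% of all genes (6.91% higher and 4.77% lower). In disseminated cells versus adenoma 5 of 9 members without Odc1 were called, 2 higher and 3 lower, beside 20.5% of all genes (8.3% higher and 12.2% lower). In metastases versus adenoma 6 of 9 were called, 3 higher and 3 lower, beside 28.7% (13.1% higher and 15.5% lower). In disseminated cells versus carcinoma 2 of 9 were called, 1 higher and 1 lower, beside 26.5% (9.2% higher and 17.3% lower). In metastases versus carcinoma 1 of 9 was called, higher, beside 22% of all genes (8% higher and 14% lower). Without carcinoma replicate 6, 3 of 9 members (Mxd1, Sat1 and Srm) were called in disseminated cells versus carcinoma, beside 30.6% of all genes, and 3 of 9 (Max, Mxd1 and Sat1) in metastases versus carcinoma, beside 27%. The members' shares in comparisons with carcinoma are near these backgrounds and are no result about the members. In metastases versus disseminated cells 13.1% of all genes were called, and no count of members is given because this contrast chose the set.

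The median difference of the members was -0.01 in carcinoma versus adenoma, against 0.06 over all genes. It was 0.58 in disseminated cells and 0.73 in metastases versus adenoma, against -0.01 and 0.01. Both of the latter member medians are the values of Mycn, which was not called. Its other probe gave -0.07 and -0.17, so they rest on the choice of probe and are not read as a shift of the set. These medians hide opposite changes, since Myc, Mycl1 and Srm were lower in both contrasts while Max and Mxd1 were higher.

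With earlier results of these data known, lists of further genes, here and below, were written from general knowledge. The first held 24 other genes of the polyamine pathway. In chemotherapy none of them was called in limma, with 4, 3 and 1 genes at an unadjusted p below 0.05 in residual versus untreated, relapsed versus residual and relapsed versus untreated tumors, and 0 in the methods' t-test. In metastases versus carcinoma 16 of 24 were called, 9 higher and 7 lower, with a median difference of 0.37 against -0.05 over all genes. In metastases versus adenoma 13 were called, 11 higher and 2 lower (median 0.60 against 0.01). These shares exceed the 22% and 28.7% of all genes called. Because the list was written with earlier results known, the excess is a description only. Carcinoma versus adenoma gave 5 (11.7% of all genes were called), all higher, disseminated cells versus adenoma 4 (20.5%), and disseminated cells versus carcinoma 8 (26.5%), of which 6 were lower. The methods' t-test called 14, 10, 6, 3 and 9 of the 24 genes in the order given.

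The regulators of Odc1 protein were among them. Oaz1, the antizyme that binds Odc1 and sends it to the proteasome, rose in carcinomas over adenomas (1.42 ± 0.25, adjusted p = 0.00180) and fell in disseminated cells (-1.41 ± 0.24, 0.000475) and metastases (-1.26 ± 0.25, 0.00203) relative to carcinomas. Oaz2, a related antizyme, fell in metastases relative to carcinomas (-1.27 ± 0.25, 0.00181) and adenomas (-0.84 ± 0.26, 0.0215). Azin1, which inhibits antizymes, was lowest in carcinomas, at -2.46 ± 0.47. It was higher in disseminated cells (1.53 ± 0.24, 0.000248) and metastases (1.38 ± 0.25, 0.00114) than in carcinomas.

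Of the arginases, which supply ornithine, Arg2 rose in both lung groups and Arg1 in metastases over adenomas. Arg2 had means of 0.82 ± 0.73 (adenoma), 2.13 ± 0.71 (carcinoma), 4.22 ± 0.90 (disseminated cells) and 2.54 ± 0.81 (metastases), and rose by 3.40 ± 0.46 from adenomas to disseminated cells (adjusted p = 0.000156). Arg1, also an enzyme of macrophages, rose by 2.71 ± 0.81 in metastases over adenomas (0.0166). The macrophage means of these groups are given above, and their part was not tested.

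Among genes of methionine use and of hypusine, the spermidine-derived residue of Eif5a, some rose and others fell in metastases. Mat2b, the regulatory subunit of methionine adenosyltransferase, was higher than in adenomas (1.93 ± 0.43, 0.00233) and carcinomas (1.58 ± 0.41, 0.00964). Mtap, which salvages the by-product of both polyamine synthases, was higher than in carcinomas by 0.75 ± 0.24 (0.0283), and Eif5a by 1.10 ± 0.25 (0.00452). The hypusine enzymes Dhps and Dohh were lower in metastases than in carcinomas, by -0.66 ± 0.17 (0.00908) and -0.83 ± 0.25 (0.0221).

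In the breakdown of polyamines, Paox, the oxidase of acetylated polyamines, fell in disseminated cells (-2.19 ± 0.38, 0.000527) and in metastases (-1.42 ± 0.40, 0.0154) relative to carcinomas. Sat2, a relative of Sat1, fell as well (-2.08 ± 0.22, 7.13e-06 and -1.21 ± 0.23, 0.00137). Smox, spermine oxidase, was higher in metastases than in adenomas (1.5 ± 0.18, 1.45e-05).

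**Figure D5:**
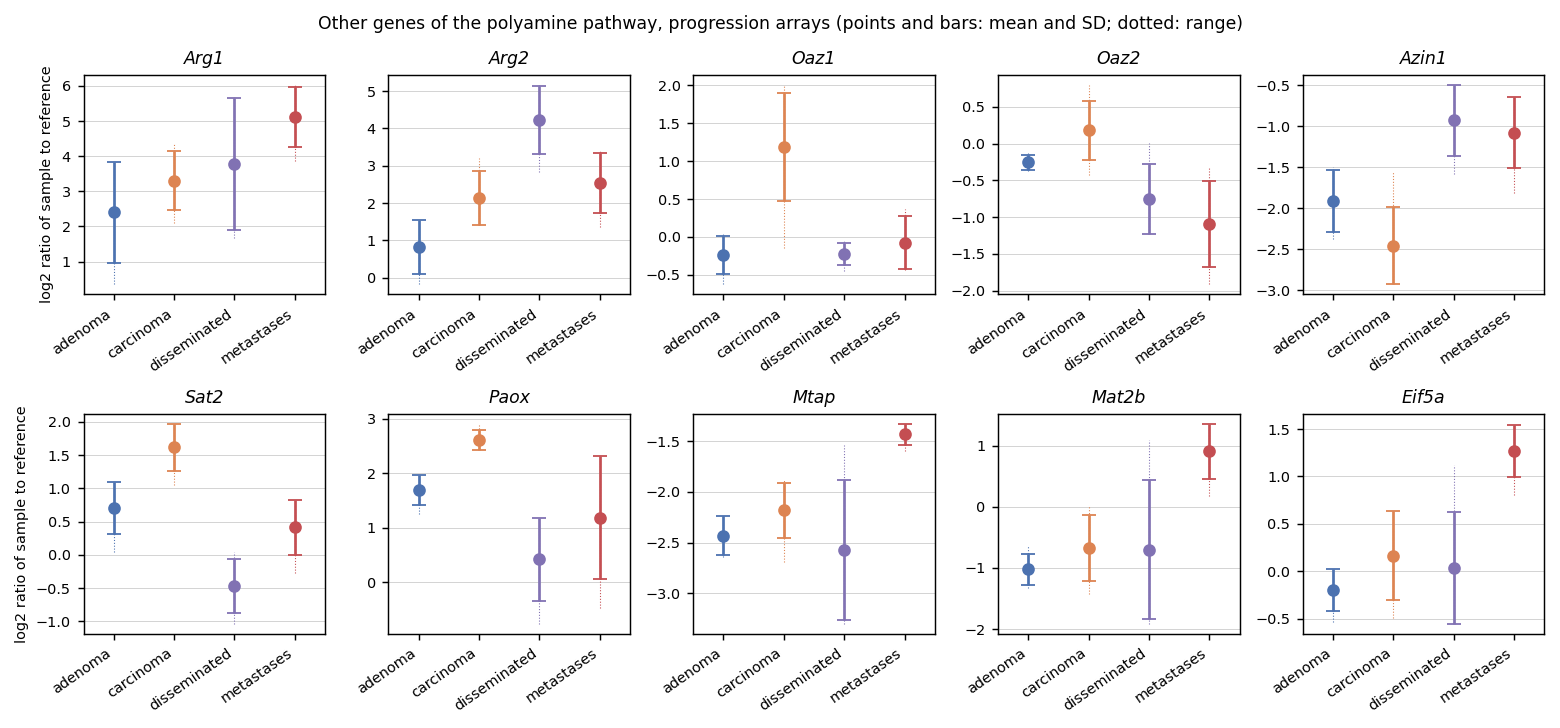
Mean log2 ratio of sample to reference and SD (y axis) of 10 other polyamine pathway genes in the 4 progression groups (x axis); dotted lines give the range over arrays. Oaz1 peaks in carcinomas (1.18) where Azin1 is lowest (-2.46), Arg2 peaks in disseminated cells (4.22), and Mat2b, Mtap and Eif5a are highest in metastases.

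The wider Myc network, 22 other genes, were read from a second list. None was called in chemotherapy, with 5, 3 and 1 at an unadjusted p below 0.05 in the order above and 0 in the methods' t-test. In metastases versus adenoma 8 of 22 were called, all lower, with a median difference of -0.37 against 0.01 over all genes, of which 15.5% were called lower and 13.1% higher. In disseminated cells versus adenoma 9 were called, 8 of them lower (12.2% of all genes lower, 8.3% higher), and in carcinoma versus adenoma 3, all lower (4.77% and 6.91%). The methods' t-test called 6, 4 and 1 of the 22 in these comparisons. Trrap, a cofactor of Myc (-1.44 ± 0.28, adjusted p = 0.000885), Aurka, a mitotic kinase that stabilizes Mycn (-1.39 ± 0.29, 0.00170), and the acetyltransferase Kat2a (-1.03 ± 0.21, 0.00102) fell in metastases relative to adenomas. Among the relatives of Mxd1, Mxi1 rose in disseminated cells over adenomas (0.83 ± 0.26, 0.0290), and Mxd3 fell (-1.10 ± 0.33, 0.0220). Mxd4 (-0.99 ± 0.28, 0.0172) and Mnt (-0.62 ± 0.19, 0.0232) fell in metastases relative to carcinomas. Mxd1 itself was higher than in adenomas in both lung groups.

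Growth and ribosome genes often named as Myc targets, 58 other genes, changed both ways. In chemotherapy none was called, with 1, 7 and 5 at an unadjusted p below 0.05 and 0 in the methods' t-test. In metastases versus adenoma 30 were called, 17 higher and 13 lower, with a median of 0.16 against 0.01 and 28.7% of all genes called (31 in the methods' t-test). Tfrc, the transferrin receptor, rose by 2.60 ± 0.59 (adjusted p = 0.00287), Ptma by 1.98 ± 0.50 (0.00598) and Cdk4 by 1.47 ± 0.46 (0.0222). Polr1a, the large subunit of RNA polymerase I, fell by 1.66 on the log2 scale (0.000640), Nop58, a core protein of small nucleolar ribonucleoproteins, by 1.47 (0.000566), and Cad, of pyrimidine synthesis, by 1.46 (0.00122).

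In disseminated cells 13 growth genes were called relative to adenomas, 12 of them lower, and 11 relative to carcinomas, 10 of them lower. These shares are near the 20.5% and 26.5% of all genes called, and the methods' t-test called 5 and 7. Nop58 and Shmt1 were lower than in adenomas by -1.23 ± 0.26 (0.00353) and -1.39 ± 0.28 (0.00272). In carcinoma versus adenoma 8 were called (11.7% of all genes, and 6 in the methods' t-test), 6 of them lower, among them Nop58 (-0.92 ± 0.26, 0.0268). In metastases versus carcinoma 17 were called (22% of all genes, and 22 in the methods' t-test), 13 of them higher, led by Srsf1 (1.47 ± 0.34, 0.00475), Eif4a1 (1.42 ± 0.13, 1.99e-05) and Ddx21 (1.38 ± 0.31, 0.00428).

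Across the 22 progression arrays, the genes most like Odc1 were Slc31a1 (Pearson's r = 0.886, Spearman's rho = 0.774), Arl3 (0.879 and 0.781), Hikeshi (0.862 and 0.756), Carnmt1 (0.856 and 0.746) and Rrs1 (0.854 and 0.764), of 11078 genes compared. These arrays share groups, slides and marker levels, so the correlations are given as a description. Among the members Max was the most like Odc1 (r = 0.635, rho = 0.558), and Myc gave r = -0.557 (rho = -0.441).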

How the data were processed

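RNA of sorted cells was hybridized on 38 Agilent two-color arrays. Spot intensities from Agilent Feature Extraction 10.7, not yet normalized, were deposited by the authors, together with background-corrected and normalized log2 ratios in a matrix of their own, which served as an alternative. Its columns correlated with the values used here at 0.966 to 0.998, with medians of 0.005 to 0.053. In R 4.3.3 with limma 3.58.1 and statmod 1.5.0, as in the study's methods, background was corrected with normexp (offset 50, not given in the sources used here), loess was run within each array and quantile normalization across the arrays of an experiment, flagged spots were left out and spots of a probe averaged. A gene was read from its probe with the highest mean signal, and 22951 probes were named through RefSeq accessions. All groups of an experiment entered 1 limma fit without covariates, with Benjamini-Hochberg adjustment over 28786 genes. The procedure was tested on simulated data. Arrays are separate samples in the labels. Where nothing says that they came from separate animals, p-values measure only the spread between these samples. The number of arrays limits the precision.

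The members and gene lists were chosen with earlier results of these data known. The genes named were the members, from each list up to 3 called genes with the largest rise and up to 3 with the largest fall in a comparison, and the 5 genes most like Myc or Odc1. Smox, Dhps, Dohh, Mtap, Eif5a and, in metastases versus carcinoma, Sat2 lay outside these ranks and were named after their values were seen. Replicate numbers of the titles were tried as a block. Alternatives were an offset of 0, processed signals of the scanner software, median centring, no normalization or Aquantile across arrays, the authors' matrix, omission of dim probes, averages over all probes of a gene, a slide block (fixed or random), the replicate block, the methods' t-test (equal variance), a fit on only the groups compared and the omission of each array. Omission of outlying local backgrounds from the normexp fit was chosen after seeing the data.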

Additional observations from a re-analysis of the deposited data

Results flagged for a closer look

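Of 70 sets of values (10 genes in 7 groups), 5 held an array whose gap to its nearest neighbor was large for the range of its group, where chance gives about 1 in 20. Carcinoma replicate 6 accounted for 3 of them. It was the lowest carcinoma for Myc, at -2.22 against -1.59 to -1.23 in the others, and the highest for Mxd1, at 4.36 against 2.03 to 2.83, and for Odc1, at 1.38 against -1.85 to -0.86. The macrophage marker mean was 4.99 on this array and at most 0.61 in the other carcinomas. Residual replicate 3 was the lowest residual tumor for Max, at 1.29 against 1.58 to 1.75. Adenoma replicate 4 was the lowest adenoma for Mxd1, at 1.32 against 1.62 to 1.70.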

How the results depend on the processing

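No called difference changed sign in any alternative. Of the differences that were only described in residual versus untreated tumors, Mxd1, Sat1 and Sms changed sign with slide as a fixed block (-0.22, -0.36 and -0.19), and Odc1 without residual replicate 2 or untreated replicate 6 (0.06 and 0.07). Small uncalled differences in other comparisons changed sign as well, such as Odc1 in disseminated cells versus carcinoma without carcinoma replicate 6 (0.05). The difference of Myc between residual and untreated tumors ranged from 0.71 to 1.01 over the alternatives and from 0.70 to 0.83 without each array, and that of Odc1 between metastases and disseminated cells from 1.73 to 3.01 and from 2.31 to 2.93. The counts of members in both comparisons with relapsed tumors were 0 in all alternatives and without any array. Of 16 member calls, 6 were kept in every alternative and without any array, 9 were lost in at least 1 alternative and 6 without at least 1 array. In carcinoma versus adenoma 2 members were called, and 4 with only the groups compared in the fit and 4 in the methods' t-test, with 1 to 3 without each array. In disseminated cells versus adenoma 5 were called, 3 with the replicate block, 2 in the methods' t-test and 3 to 6 without each array. In disseminated cells versus carcinoma 2 were called, 1 with the deposited matrix, 1 with only the groups compared, 0 in the methods' t-test and 1 to 3 without each array. In metastases versus carcinoma 1 was called, 2 with the replicate block and 1 to 3 without each array, 3 being without carcinoma replicate 6 and 2 without metastasis replicate 2. In metastases versus adenoma 6 were called, with 4 to 6 without each array. Replicate numbers were not taken to pair the samples (deviations of same-numbered arrays correlated at -0.41 to 0.42 over 14 pairs in chemotherapy and at -0.41 to 0.32 over 31 pairs in progression, and 6 of 16 chemotherapy arrays and 1 of 22 progression arrays correlated best with their own number). The replicate block moved no other count of member calls by over 1.5 times. Aquantile normalization leaves the ratios as they are and gave the same values as no normalization between arrays. Slide as a fixed block could not be fitted for the contrasts between the slide sets of the progression experiment. Over all genes, residual versus untreated tumors gave 56 calls, but 17 with an offset of 0, 26 with the processed signals, 19 with the replicate block, 11 in the methods' t-test and 1 with slide as a fixed block. The cause of these changes was not tested. Mycn was near background after chemotherapy, which limits what its values can show.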
